A study of Mus musculus with 11 samples.

Results

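Regulators of G protein signalling, the Rgs genes, were followed in T cells of mouse draining lymph nodes. The members are Rgs1, Rgs2, Rgs3, Rgs10, Rgs14, Rgs16 and Rgs19. They were chosen by symbol, not by their values, and are 7 of the 21 Rgs symbols in the single-cell matrix of 31053 genes and of the 19 in the bulk table of 29224 genes. The series holds 11 samples in 8 groups and concerns Sostdc1, which encodes a secreted inhibitor of the Wnt and BMP pathways and is made by some T follicular helper (Tfh) cells. Values of 3 samples were used, all from C57BL/6 mice. Bulk RNA-seq covered follicular regulatory T (Tfr) cells, sorted as CXCR5+PD1+ GITRhi cells, in 1 library with the genotype WT and 1 with the genotype Sostdc1 homo, whose title names a knockout. Single-cell RNA-seq covered CD4+CD44+ T cells, that is antigen-experienced helper T cells, from Sostdc1-EGFP heterozygous mice, so those cells carry 1 reporter allele. The labels give no age, immunisation or number of animals pooled. With 1 library per group no test of a condition could be made, and every interval below covers counting error only.

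Chemokine and lipid receptors on lymphocytes signal through heterotrimeric G proteins, whose alpha subunit is active while it holds GTP. RGS proteins speed up GTP hydrolysis by the alpha subunit and so end the signal. In lymphocytes they are known for setting how strongly cells answer the chemoattractants that place them in the T zone, at the follicle border or in the germinal centre. Rgs1, Rgs2, Rgs3 and Rgs16 belong to the R4 subfamily, built mainly of the catalytic RGS domain. Rgs10 and Rgs14 belong to another subfamily, and Rgs14 adds domains that bind Ras-type GTPases and inactive alpha subunits. Rgs19, also called GAIP, carries a cysteine-rich stretch that anchors it to membranes.

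Upstream windows of 250 bases were read from RefSeq promoters (build GRCm38.p6) for Rgs16 and Rgs2, which passed 2-fold in stimulated cells (for Rgs2 a call that rests on 6 cells with myeloid UMIs, as given below), and for Rgs10, which was higher with Rgs16 in Tfh cells. Each is shown 5′ to 3′ on the strand of its gene, ending at the base before the start site, and capitals mark every match to a searched motif.
Rgs16, chr1:153740103-153740352, plus strand: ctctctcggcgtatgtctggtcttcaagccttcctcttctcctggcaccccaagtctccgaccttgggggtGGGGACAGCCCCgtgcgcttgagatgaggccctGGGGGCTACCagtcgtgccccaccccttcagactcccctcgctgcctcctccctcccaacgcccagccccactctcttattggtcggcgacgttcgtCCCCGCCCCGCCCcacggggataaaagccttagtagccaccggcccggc
Rgs2, chr1:144004150-144004399, minus strand: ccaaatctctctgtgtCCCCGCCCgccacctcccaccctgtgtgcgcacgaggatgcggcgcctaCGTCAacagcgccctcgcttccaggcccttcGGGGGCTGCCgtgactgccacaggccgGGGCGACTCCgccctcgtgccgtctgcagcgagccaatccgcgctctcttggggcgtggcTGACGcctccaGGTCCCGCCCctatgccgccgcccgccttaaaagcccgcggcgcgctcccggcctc
Rgs10, chr7:128418173-128418422, minus strand: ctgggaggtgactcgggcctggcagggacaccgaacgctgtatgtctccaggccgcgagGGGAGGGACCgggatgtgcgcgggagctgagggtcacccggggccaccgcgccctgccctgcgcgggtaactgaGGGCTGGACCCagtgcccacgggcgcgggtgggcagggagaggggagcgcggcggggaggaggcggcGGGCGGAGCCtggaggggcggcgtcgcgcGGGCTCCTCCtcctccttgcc
Both strands were searched for AP-1 (TGANTCA), the Nr4a response element NBRE (AAAGGTCA), the CRE (TGACGTCA) and its core (TGACG), which the CRE contains, NF-kappaB (GGG and CC with 5 bases of any kind between), the NFAT core (TGGAAA), the KLF GC box (GGGCGGGG) and the TATA box (TATAAA). The capitals in Rgs16 are NF-kappaB and GC box matches, those in Rgs2 are NF-kappaB, GC box and CRE core matches, and those in Rgs10 are NF-kappaB matches. Of 32851 promoter windows of this length, 45.8% held an NF-kappaB match, 16.1% a GC box and 17.8% a CRE core. The other motifs were held by 6.75% (AP-1), 1.34% (NBRE), 1.55% (CRE), 18.6% (NFAT core) and 12.4% (TATA box) of the windows. The windows were rich in G and C, at 66.4% for Rgs16, 72.4% for Rgs2 and 76.4% for Rgs10, against a median of 52.4% over all windows. A match is a description of letters and not a measured binding site. RefSeq windows were matched for 5 of the 7 members (Rgs2, Rgs3, Rgs10, Rgs16 and Rgs19), and the table gave 8 windows for them.

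In the single-cell library, 11712 cells were used of 15002 barcodes, with a median of 5878 UMIs per cell. Cells were put into gates by UMIs of marker genes. Tfh cells (777) held Cxcr5 and Pdcd1 without Foxp3, Tfr cells (84) held all 3, and regulatory T (Treg) cells (2081) held Foxp3 outside the Tfr gate. Of the other T cells, 3823 held the lymph node homing receptor Ccr7 without Nr4a1 and are called resting, and 136 held Nr4a1, an early target of antigen receptor signalling, without Ccr7 and are called stimulated. A further 89 held both and 3599 held neither. Markers outside the gating genes followed the names: Bcl6, the Tfh transcription factor, was at 64.4 CPM (counts per 1000000 UMIs of the gate) in Tfh cells and 8.18 CPM in resting cells, Ikzf2 at 770.1 CPM in Treg cells and 76.0 CPM in resting cells, and Egr3 at 146 CPM in stimulated cells and 4.11 CPM in resting cells. Median UMIs per cell were 7390 in Tfh, 10163 in Tfr, 6008 in Treg, 6122 in resting and 6528 in stimulated cells. A sum of 12 myeloid marker genes was uneven, at 165 CPM in resting, 292 CPM in Tfh, 376 CPM in Tfr and 631 CPM in Treg cells. It was at 1314 CPM in stimulated cells, 1686 CPM in cells with neither marker and 2000 CPM in cells with both. Of the neither cells, 245 with at least 2 UMIs of 6 myeloid genes held Rgs2 at 90.7 CPM and Rgs1 at 47.9 CPM. The other 3354 held Rgs2 at 25.4 CPM and Rgs1 at 107 CPM.

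**Figure D1:**
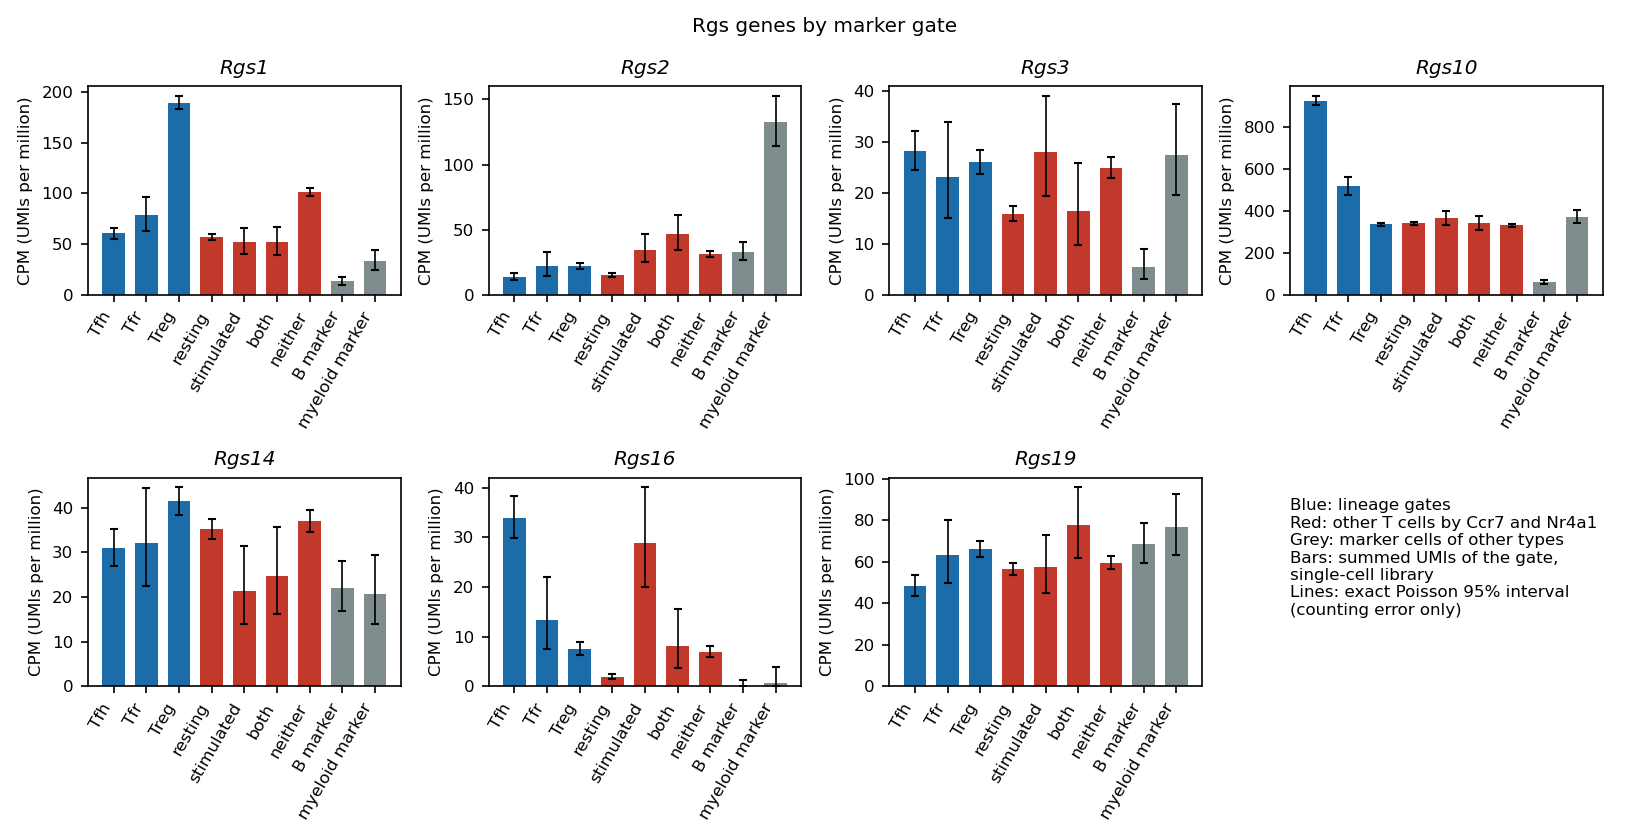
Level of each Rgs gene in CPM (vertical axes from 0, separate scale per gene) in 7 T cell gates and in B marker and myeloid marker cells of the 1 single-cell library. Bars are summed UMIs of a gate and lines are exact Poisson 95% intervals. Rgs10 peaked in Tfh cells at 924 CPM, Rgs1 in Treg cells at 189.5 CPM, and Rgs16 in Tfh and stimulated cells at 33.9 and 28.8 CPM, while Rgs19 stayed between 48.4 and 77.5 CPM in the T cell gates.

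Rgs16, which acts on Gi and Gq and limits T cell migration to chemokines, was the member that differed most between gates. It was at 33.9 CPM (29.8 to 38.3) in Tfh cells and 28.8 CPM (20.1 to 40.04) in stimulated cells. The Tfr gate followed at 13.4 CPM (7.5 to 22.1), from 15 UMIs, then cells with both Ccr7 and Nr4a1 at 8.2 CPM (3.75 to 15.6), Treg cells at 7.47 CPM (6.24 to 8.86) and cells with neither at 6.99 CPM (5.94 to 8.16). Resting cells were lowest at 1.87 CPM (1.39 to 2.46). The intervals of Tfh and stimulated cells overlapped, those of stimulated and Tfr cells just did, and so did those of Tfr, both, Treg and neither, while the interval of resting cells lay below all of them. Thinned to 3000 UMIs per cell, 10.4% of stimulated and 8.03% of Tfh cells held an Rgs16 UMI, against 2.65% of Treg and 0.431% of resting cells (unthinned 14.7%, 14.8%, 4.66% and 1.07%). B marker cells held it in 0 of 474 at a median of 4684 UMIs, which allows a share of cells with a UMI of up to 0.633%. The signal was uneven within the Tfh gate: 3.6% of Tfh cells held 3 or more Rgs16 UMIs, up to 13 in 1 cell, and the 10% of cells with the most held 85.2% of the UMIs.

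Against resting cells, 2 of the 7 members were at least 2-fold higher on the log2(CPM + 1) scale in stimulated cells and 0 were lower. Of all 5509 genes with at least 20 CPM in either gate, 7.97% were higher and 1.07% lower by that rule, and the medians were 0.10 for the members and 0.30 for all genes. Rgs16 was 15.4-fold (95% interval 9.72 to 24.1) higher. Rgs2, which favours Gq, was at 34.5 CPM in stimulated and 15.3 CPM in resting cells, 2.27-fold (95% interval 1.61 to 3.12) higher. The Rgs2 value rested on few cells: 6 stimulated cells with at least 2 UMIs of 6 myeloid genes held Rgs2 at 200.5 CPM, and the other 130 held it at 18.9 CPM. Myeloid marker cells themselves had Rgs2 at 133 CPM (115 to 153), the highest of any gate, and Rgs16 at 0.687 CPM from 1 UMI. With T cells taken by Cd3 genes and fewer than 2 myeloid UMIs, the Rgs2 difference was 0.30 on the log2 scale and no longer 2-fold. Rgs3 was at 28 and 15.9 CPM, a ratio of 1.76-fold (95% interval 1.2 to 2.5). Rgs14 was at 21.4 and 35.2 CPM, 1.65-fold (95% interval 1.12 to 2.53) lower in stimulated cells, but with 2 UMIs asked of each marker its log2 difference was -0.04. Rgs10, Rgs1 and Rgs19 had intervals of the ratio that included no difference.

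The Rgs16 difference was present inside each lineage with enough cells. Among Tfh cells it was at 83.5 CPM in the 37 cells with Nr4a1 alone, 36.8 CPM in the 582 with neither marker and 8.71 CPM in the 144 with Ccr7 alone. Among Treg cells the same order was 26.1, 7.04 and 3.98 CPM, and among other T cells 28.8, 6.99 and 1.87 CPM. Cells with Nr4a1 alone thus exceeded cells with neither by 2.27-fold (1.5 to 3.33), 3.71-fold (2.27 to 5.88) and 4.12-fold (2.77 to 5.97) in Tfh, Treg and other T cells. Cells with Ccr7 alone were lower than cells with neither by 4.22-fold (2.46 to 7.87), 1.77-fold (1.1 to 2.94) and 3.74-fold (2.71 to 5.23). Without cells holding a Mki67 or Top2a UMI, which mark division, the Treg difference between Ccr7 alone and neither narrowed to 1.31-fold (0.761 to 2.34), whose interval included no difference. In the Tfr gate the neither state alone reached 20 cells.

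Rgs1 and Rgs14 were lower in cells with Nr4a1 alone than in cells with neither marker, where Rgs16 was higher in the former. Rgs1, a strong brake on chemokine and sphingosine phosphate receptor signalling, was at 37.7 against 67 CPM with neither marker in Tfh cells, 1.78-fold (1.04 to 3.28) lower. In Treg cells it was at 169 against 201 CPM, and in other T cells at 51.8 against 102 CPM, 1.96-fold (1.53 to 2.56) lower. With Ccr7 alone Rgs1 was also lower than with neither, by 1.52-fold (1.17 to 1.99) in Tfh and 1.78-fold (1.67 to 1.9) in other T cells. In Treg cells Rgs1 was lower by 1.12-fold (1.04 to 1.21) with Ccr7 alone, an order that turned without Mki67 or Top2a cells. Low Rgs1 was thus not particular to cells with Nr4a1 alone. Rgs14 was lower by 1.83-fold (1.24 to 2.81) in Treg and 1.73-fold (1.17 to 2.66) in other T cells, while the Tfh value rested on few UMIs, with a ratio of 1.92-fold (0.862 to 5.3) and an interval that included no difference. With Ccr7 alone Rgs14 was 1.65-fold (1.39 to 1.96) lower than with neither in Treg cells, so its low level there was not particular to Nr4a1. In Tfh and other T cells the Rgs14 intervals for Ccr7 alone included no difference. Rgs10 was highest in Tfh cells with neither marker, at 1027 CPM, and was at 730.0 CPM with Nr4a1 alone and 677 CPM with Ccr7 alone. In Treg and other T cells it stayed between 308 and 365 CPM in all 4 states.

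**Figure D2:**
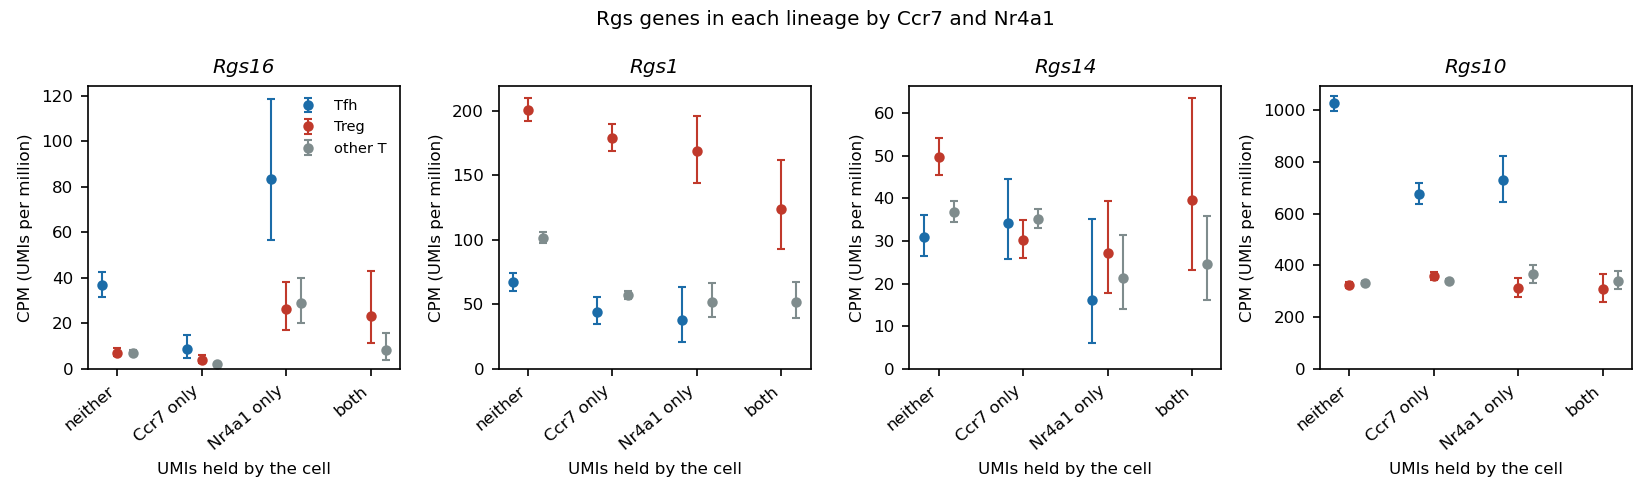
Rgs16, Rgs1, Rgs14 and Rgs10 in CPM (vertical axes from 0) for Tfh, Treg and other T cells, split by whether a cell held UMIs of neither marker, Ccr7 alone, Nr4a1 alone or both. Points are summed UMIs of a group of at least 20 cells and lines exact Poisson 95% intervals. Rgs16 was highest with Nr4a1 alone in each lineage (83.5 CPM in Tfh cells), and Rgs14 was lowest there (16.2 CPM in Tfh cells).

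Over all 10589 T cells, Rgs16 was at 7.1 (6.5 to 7.73) CPM in cells without an Nr4a1 UMI, 21.3 (16.3 to 27.3) CPM with 1, 38.2 (24.2 to 57.4) CPM with 2, 38.9 (25.2 to 57.5) CPM with 3 to 5 and 39.3 (22.5 to 63.9) CPM with 6 or more (10157, 276, 53, 70 and 33 cells). The intervals from 1 UMI upward overlapped, so the intervals separated only cells with 0 from cells with 1 or more. Rgs1 lay within 87.6 to 108 CPM up to 5 Nr4a1 UMIs and was at 24.6 (11.8 to 45.2) CPM in the 33 cells with 6 or more. By Ccr7 UMIs, Rgs16 was at 12.6, 5.02, 2.72 and 2.22 CPM with 0, 1, 2 and 3 or more. Rgs1 went the same way, at 121, 91.9, 73.6 and 63.8 CPM, as did Rgs2, at 27.7, 19.5, 16.1 and 12 CPM. Each of these 3 genes thus had its highest level in the 5879 cells without Ccr7 and its lowest in the 1394 cells with the most, although the intervals of the last 2 steps overlapped for each of the 3. These values pool the lineages. Within Tfh cells Rgs2 was higher with Ccr7 alone than with neither marker, by 1.62-fold (1.02 to 2.51), and in Treg cells without Mki67 or Top2a Rgs1 was higher with Ccr7 alone, by 1.15-fold (1.05 to 1.27). Rgs19 stayed between 56.5 and 59.99 CPM. Cells with more marker UMIs were also deeper, with medians from 5891 to 8789 UMIs over the Nr4a1 groups and from 5576 to 6891 over the Ccr7 groups, and the part of depth was not tested.

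**Figure D3:**
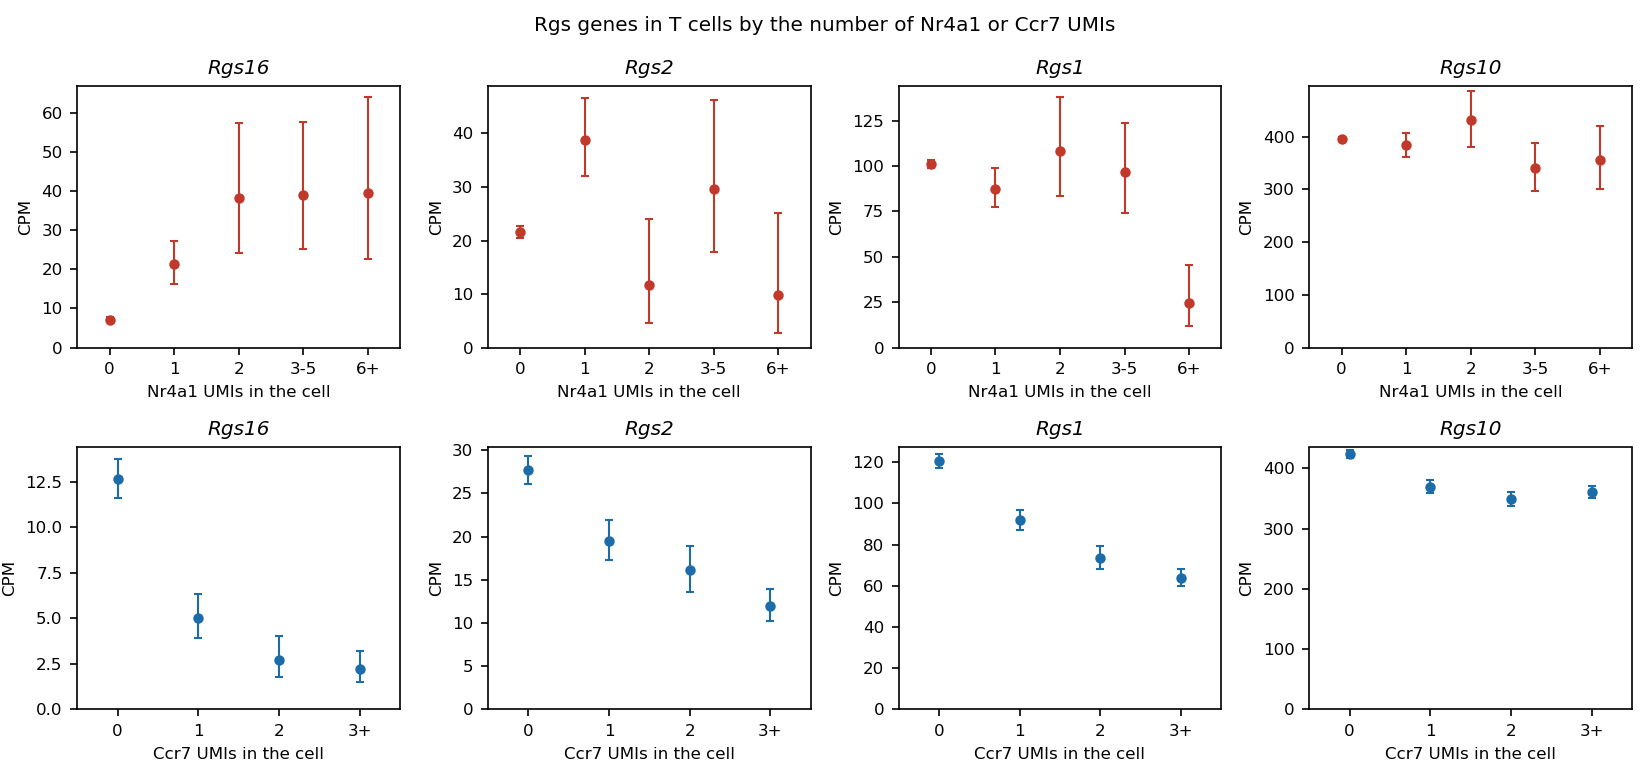
Rgs16, Rgs2, Rgs1 and Rgs10 in CPM (vertical axes from 0) in T cells grouped by the number of Nr4a1 UMIs (top, red) or Ccr7 UMIs (bottom, blue) in the cell, with exact Poisson 95% intervals. Rgs16 lay at 7.1 CPM without Nr4a1 and between 21.3 and 39.3 CPM with it, and its level with Ccr7 was lower at each step, from 12.6 to 2.22 CPM.

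In Tfh cells, the germinal centre helper lineage, Rgs10 and Rgs16 were higher than in resting cells. Of 6 members that reached 20 CPM in either gate, 2 were at least 2-fold higher and 0 lower, against 7.41% higher and 1.53% lower among 5493 genes (medians 0.44 and 0.30). Rgs10, which acts on Gi alpha subunits, was at 924 CPM (903 to 947) in Tfh and 341 CPM (334 to 348) in resting cells, 2.71-fold (95% interval 2.62 to 2.79) higher. It was not a feature of a few cells: 86.1% of thinned Tfh cells held a UMI against 55% of resting cells (unthinned 94.7% and 76.6%), and the median Tfh cell with Rgs10 held 8 UMIs against 2. B marker cells had Rgs10 at 60.2 CPM and in 11.1% of thinned cells (19.8% unthinned), though no gate here is known to lack it. Rgs10 made up 81.1% of all UMIs of the 7 members in Tfh cells and 65.3% in resting cells.

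Rgs16 was 18.1-fold (95% interval 13.4 to 25) higher in Tfh than in resting cells. Its level in Tfh cells moved with the mitochondrial share of UMIs: it was at 18.1 CPM in the 314 Tfh cells under 5% and 51.7 CPM in the 463 others, which also differed in median depth, 9541 against 6607 UMIs. At under 5% in both gates it no longer reached the 20 CPM minimum, with a log2 difference of 2.81. Rgs10 was at 793 and 1073 CPM in those Tfh cells. The part of the mitochondrial share in these levels was not tested. Rgs3, which acts on Gi and Gq, was at 28.2 CPM in Tfh cells, 1.78-fold (95% interval 1.5 to 2.1) above resting cells. Rgs1, Rgs14 and Rgs19 lay close to resting cells, at ratios of 1.06, 0.877 and 0.859, and Rgs2 was under 20 CPM in both gates, at 13.7 and 15.3 CPM.

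Tfh and stimulated cells were compared in Rgs16 with a ratio of 1.18-fold (95% interval 0.824 to 1.73), and they parted in Rgs10. The Rgs16 order turned at under 5% mitochondrial UMIs, where Tfh cells were at 18.1 and stimulated cells at 33.5 CPM (log2 -0.85), and with 2 UMIs asked of each marker (log2 -0.10). Rgs10 was 2.53-fold (95% interval 2.3 to 2.79) higher in Tfh than in stimulated cells, while stimulated and resting cells differed in it by 1.07-fold (95% interval 0.971 to 1.18). Rgs2 was 2.52-fold (95% interval 1.72 to 3.65) lower in Tfh cells, a call that was lost when cells with at least 2 myeloid UMIs were left out or 2 UMIs were asked of each marker. The stimulated, Tfh and Treg comparisons share the resting cells. Of the 7 members, 1 was higher and 1 lower in Tfh than in stimulated cells, against 2.06% and 3.26% of 5738 genes.

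Rgs1 was higher in Treg cells than in any other gate. It was at 189.5 CPM (183 to 196) in Treg cells and 57.1 CPM (54.3 to 59.99) in resting cells, 3.32-fold (95% interval 3.13 to 3.53) higher, and was the 1 of 6 members with at least 20 CPM that passed 2-fold, against 8.12% of 5434 genes higher and 1.01% lower. The share of thinned cells with an Rgs1 UMI was 35% in Treg, 15.9% in Tfh, 15.7% in Tfr and 10.3% in resting cells (unthinned 52.9%, 28.3%, 38.1% and 17.7%). In B marker cells, which are also known to express Rgs1, the thinned share was 2.31% (4.85% unthinned). The next highest T cell gate was neither, at 102 CPM (97.4 to 106), and Tfr, Tfh, resting, stimulated and both lay between 51.8 and 78.6 CPM. The neither gate was split by Ccl5 after the gate values were seen. Its 398 cells with a Ccl5 UMI had Rgs1 at 174 CPM (159 to 190), an interval that overlapped that of Treg cells. The 3201 without it had Rgs1 at 91.6 CPM. High Rgs1 was thus not confined to the Treg gate. Rgs16 was 3.99-fold (95% interval 2.87 to 5.63) higher in Treg than in resting cells but under 20 CPM in both. Rgs14 and Rgs19 were 1.18-fold and 1.17-fold higher, and Rgs10 was at 335 CPM, 1.02-fold below resting cells with an interval that included no difference. Myeloid marker cells had Rgs1 at 33 CPM, below the level of Treg cells.

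Within Treg cells, 3 of 6 members with at least 20 CPM (Rgs1, Rgs2 and Rgs10) were at least 2-fold lower and 0 higher where Mki67, a marker of dividing cells, was detected. By the same rule 3.85% of 5713 genes were lower and 8.05% higher, with log2 medians of -0.73 for the members and 0.02 for all genes. The 501 Treg cells with a Mki67 UMI had Rgs1 at 119 CPM and the 1580 without at 246 CPM, 2.07-fold (1.92 to 2.23) lower. Rgs10 was 2.01-fold (1.9 to 2.13) lower, Rgs16 3.73-fold (2.36 to 6.13) lower and Rgs2 2.13-fold (1.69 to 2.69) lower in Mki67 cells, while Rgs19 was at 63.4 and 68.1 CPM. Cells with Mki67 were deeper, with medians of 12498 against 5506 UMIs, so these are shares of a larger RNA content and not amounts per cell. Treg cells with Gzmb, a cytotoxic protease of effector Treg cells, had Rgs10 at 243 against 431 CPM without it, and Rgs1 at 168 against 212 CPM. Those with Klrg1 had Rgs10 at 225 against 372 CPM, and Rgs1 at 175 against 194 CPM. These splits were made after the gate values were seen.

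Tfr cells lay between Tfh and Treg cells in Rgs10, at 517 CPM (476 to 561), and in Rgs1, at 78.6 CPM (63 to 96.8), where they were 1.3-fold (95% interval 1.02 to 1.64) above Tfh cells, an order that turned in thinned cells (log2 -0.17). Rgs1 was 2.41-fold (95% interval 1.95 to 3.01) lower in Tfr than in Treg cells, the 1 of 6 members at 20 CPM or more that passed 2-fold lower, with 0 higher, against 1.54% of 5658 genes lower and 1.25% higher. Rgs10 was 1.54-fold (95% interval 1.41 to 1.68) higher than in Treg cells and 1.79-fold (95% interval 1.64 to 1.95) lower than in Tfh cells. Rgs16 was 2.53-fold (95% interval 1.5 to 4.59) lower than in Tfh cells, the 1 of 7 members lower there, against 1.74% of 5732 genes lower and 2.72% higher. That Rgs16 value came from 15 UMIs. The difference stayed past 2-fold under 6 of 12 alternatives, with a log2 difference between -1.28 and -0.38. Several of those 6 could not change it. A floor of 200 genes, overlapping gates and leaving out haemoglobin-rich cells kept 84 Tfr and 777 Tfh cells. Dropping the 20 CPM minimum kept the values. The call also held with Cd3-based T cells under 2 myeloid UMIs and in cells under 20000 UMIs. Rgs2, Rgs3, Rgs14 and Rgs19 had intervals against Treg cells that included no difference. A Mki67 UMI was held by 40.5% of Tfr, 24.1% of Treg and 22.8% of Tfh cells. Without cells holding a Mki67 or Top2a UMI, Rgs1 was lower in Tfr than in Treg cells by a log2 difference of -1.10, and with 2 UMIs asked of each marker by -0.84, which is no longer 2-fold. Tfr cells were also the deepest, with a median of 10163 UMIs against 7390 in Tfh and 6008 in Treg cells. Without doublet removal the Tfr, Tfh and Treg gates held 112, 851 and 2421 cells in place of 84, 777 and 2081. A doublet of a Tfh and a Treg cell would meet the Tfr gate, and the part of doublets in these levels was not tested.

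A finer split of T cells by Foxp3, Cxcr5 and Pdcd1, added after the gate values were seen, placed these levels. In Foxp3-negative cells Rgs10 was at 311 CPM with neither follicular receptor, 362 CPM with Pdcd1 alone, 502 CPM with Cxcr5 alone and 924 CPM with both. In Foxp3-positive cells the values were 329, 321, 451 and 517 CPM. Rgs10 was therefore higher with Cxcr5 than with Pdcd1 alone on either side of Foxp3. Rgs1 in Foxp3-positive cells was at 202 CPM with neither, 200.3 CPM with Cxcr5 alone, 147 CPM with Pdcd1 alone and 78.6 CPM with both, so it was lower with Pdcd1 alone than with neither, and lowest with both. In Foxp3-negative cells Rgs1 was highest with Pdcd1 alone, at 99.4 CPM. Rgs16 in Foxp3-negative cells was at 1.98 CPM with neither, 10.1 CPM with Cxcr5 alone, 13.3 CPM with Pdcd1 alone and 33.9 CPM with both, the last 17.1-fold (13.2 to 22.5) above neither. In Foxp3-positive cells the range was narrower, from 5.97 to 13.4 CPM.

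**Figure D4:**
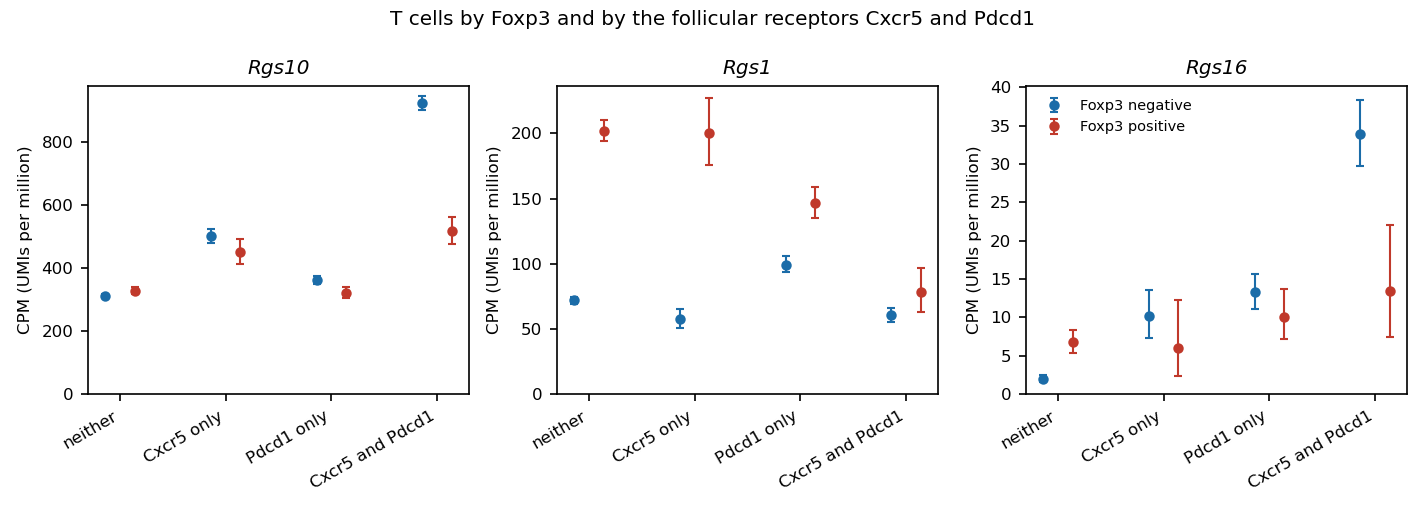
Rgs10, Rgs1 and Rgs16 in CPM (vertical axes from 0) in T cells without (blue) and with (red) a Foxp3 UMI, split by UMIs of Cxcr5 and Pdcd1, with exact Poisson 95% intervals. Foxp3-negative cells with both receptors had the highest Rgs10 (924 CPM) and Rgs16 (33.9 CPM), and Foxp3-positive cells with both had the lowest Rgs1 of the Foxp3-positive cells (78.6 CPM).

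The Tfh gate was also split by Sostdc1, the gene the study is about, after its values were seen. In the 130 Tfh cells with a Sostdc1 UMI, Rgs16 was at 59.1 CPM and in the 647 without at 28.9 CPM, 2.05-fold higher (1.54 to 2.71). Rgs1 was at 32 and 66 CPM, 2.06-fold lower (1.48 to 2.94). Rgs10 was at 992 and 911 CPM, a ratio of 1.09 (1.02 to 1.16). Rgs2, Rgs3, Rgs14 and Rgs19 had intervals that included no difference. Of the 72 Rgs16 UMIs in cells with Sostdc1, 20 came from 7 cells that also held Nr4a1. Among Tfh cells without Nr4a1, Rgs16 was at 47.2 CPM (35.3 to 61.9) with Sostdc1 and 26.8 CPM (22.7 to 31.4) without it. The part of the mitochondrial share, with which Rgs16 moved in Tfh cells, was not tested in this split.

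Over the 12 groups of lineage by Ccr7 and Nr4a1 state with at least 20 cells, the genes most like a member in log2(CPM + 1) were listed by Pearson correlation. These points come from 1 library and share its free RNA, so the values are descriptions. Each list is the top of 1628 or 1629 genes compared. Rgs16 was most like Gramd1b (0.949), Cd82 (0.947), Casp4, Aldoa and Eea1. Rgs10 was most like Ubac2 (0.944), Scd2, Tspan5, the kinase gene Fyn and the purine receptor gene P2rx7. Rgs1 was most like Ass1 (0.919), Hbs1l, Arl5a, Klrg1 and Gzmb. Within Treg cells, though, Rgs1 was lower in cells with a Klrg1 or a Gzmb UMI than in those without, as given above. Rgs2 was most like Skap2 (0.854), with Plac8, Gpx1, Ifitm2 and Ifitm3 behind it. Of these groups, other T cells with both markers had the highest Rgs2, at 46.5 CPM, and that value rested on few cells. Its 6 cells with at least 2 myeloid UMIs held Rgs2 at 365 CPM and the other 83 at 16.0 CPM. The part of myeloid transcripts in the Rgs2 list was not tested. Rgs14 was most like Pik3r1 (0.848) and Rgs19 most like Spr (0.875). Rgs19 ranged over only 0.722 log2 units across the groups, less than the 1 unit asked of the genes compared. Its correlations, also those with other members, thus rest on small differences. Among the members themselves the highest value was that of Rgs3 with Rgs16 (0.692) and the lowest that of Rgs10 with Rgs19 (-0.633).

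The other parts of the pathway were read from lists of G protein subunits, receptors and effectors. Between stimulated and resting cells, 8 of 15 measured chemoattractant receptors were at least 2-fold higher and 2 lower. Over all 5509 genes 7.97% were higher and 1.07% lower. Cxcr6 was 6.35-fold (5.38 to 7.46) higher and the leukotriene receptor gene Ltb4r1 6.77-fold (4.58 to 9.8) higher. Ccr7, among the lower receptors, was set by the gates. Of 9 other G protein-coupled receptors 5 were higher, led by the prostaglandin receptor gene Ptger2 at 3.65-fold (2.31 to 5.54). Of 6 alpha subunits 2 were higher, Gna15 by 4.67-fold (3.63 to 5.95) and Gnaq by 3.54-fold (2.24 to 5.37), both of the Gq class. Among 3 receptor kinases and arrestins and 13 effectors, 0 passed 2-fold. The stimulated gate also held more transcript of other cell types than the resting gate. The 12 myeloid markers summed to 1314 and 165 CPM, and the 12 B cell markers to 1434 and 369 CPM. The latter gap lay in Cd74, H2-Aa and H2-Eb1, while Cd79a was at 3.29 and 3.89 CPM. Clec9a was at 11.5 and 0.293 CPM and Xcr1 at 16.5 and 0.22 CPM. The part of such transcripts in the receptor and subunit values was not tested. In Tfh against resting cells, the alpha subunit gene Gna13 was 2.67-fold (2.48 to 2.88) higher, the gamma subunit gene Gng2 2.84-fold (2.65 to 3.03) higher, the confinement receptor gene S1pr2 7.53-fold (5.95 to 9.58) higher and the Rap1 activator gene Rasgrp2 3.52-fold (3.08 to 4.04) lower. These lists had 1 of 4 alpha subunits and 1 of 4 beta or gamma subunits higher and 1 of 13 effectors lower by 2-fold. Of 11 chemoattractant receptors 5 were higher and 3 lower there. Those counts include Cxcr5 (higher) and Ccr7 (lower), which the gates set. Over all 5493 genes 7.41% were higher and 1.53% lower.

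The bulk libraries of sorted Tfr cells held 27777625 counts (labelled KO) and 18076300 counts (labelled WT). Sostdc1 itself did not follow the genotype labels, with 458 counts (16.5 CPM) in the KO-labelled and 4 counts (0.221 CPM) in the WT-labelled library, and neither a countable transcript from the allele nor an exchange of the 2 columns was tested. An exchange would turn every bulk direction and percentile below. In the same order, the libraries held Xist at 1232 and 2.16 CPM and the Y-linked gene Ddx3y at 0.216 and 197 CPM. Sex and genotype therefore cannot be told apart, and no direction below can be assigned to loss of Sostdc1. In bulk RNA, fewer cells of a type and less RNA per cell cannot be told apart either.

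Rgs1 was the member that differed most between the Tfr libraries, with 18235 counts (656 CPM) in the KO-labelled and 3670 counts (203 CPM) in the WT-labelled one, 3.23-fold (3.12 to 3.35) higher in the former. It was the 1 of 7 members past 2-fold higher and 0 were past 2-fold lower, against 2.60% higher and 9.12% lower among 10194 genes with at least 5 CPM in either library. Scaling by trimmed means of log ratios (TMM) gave 414 higher and 688 lower, so that higher genes made up 37.6% of those past 2-fold in place of 22.2%. Rgs16 followed with 369.6 and 186 CPM, 1.98-fold (1.91 to 2.06) higher in the library labelled KO, and passed 2-fold with TMM scaling. Rgs2 was at 82.5 and 48.4 CPM, 1.7-fold (1.58 to 1.84) higher. Rgs1, Rgs16 and Rgs2 lay above 99.3%, 97.3% and 94.6% of genes in their log2 ratio, and Rgs3, the other R4 member, above 32.3%. Rgs10 was at 33.3 and 25.8 CPM, 1.29-fold (1.15 to 1.45) higher.

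The identifiers in the table are Rgs1 ENSMUSG00000026358, Rgs2 ENSMUSG00000026360, Rgs3 ENSMUSG00000059810, Rgs10 ENSMUSG00000030844, Rgs14 ENSMUSG00000052087, Rgs16 ENSMUSG00000026475 and Rgs19 ENSMUSG00000002458. The remaining members were lower in the library labelled KO. Rgs14 was at 32.4 CPM there and 63.5 CPM in the other library, 1.96-fold (1.79 to 2.14) lower. Rgs3 was at 86 and 106 CPM, 1.24-fold (1.16 to 1.31) lower, and shares its locus with the gene model Gm52741, so its reads may not all be its own. Rgs19 was at 48.8 and 61.2 CPM, 1.25-fold (1.16 to 1.36) lower. The median log2 ratio was 0.36 for the members and -0.04 for all genes. With TMM scaling the median of all genes moved to 0.11, and Rgs3, Rgs14 and Rgs19 remained lower. Of the other family members, Rgs9 was at 33.7 and 42.3 CPM and Rgs12 at 9.0 and 20.9 CPM in the libraries labelled KO and WT.

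**Figure D5:**
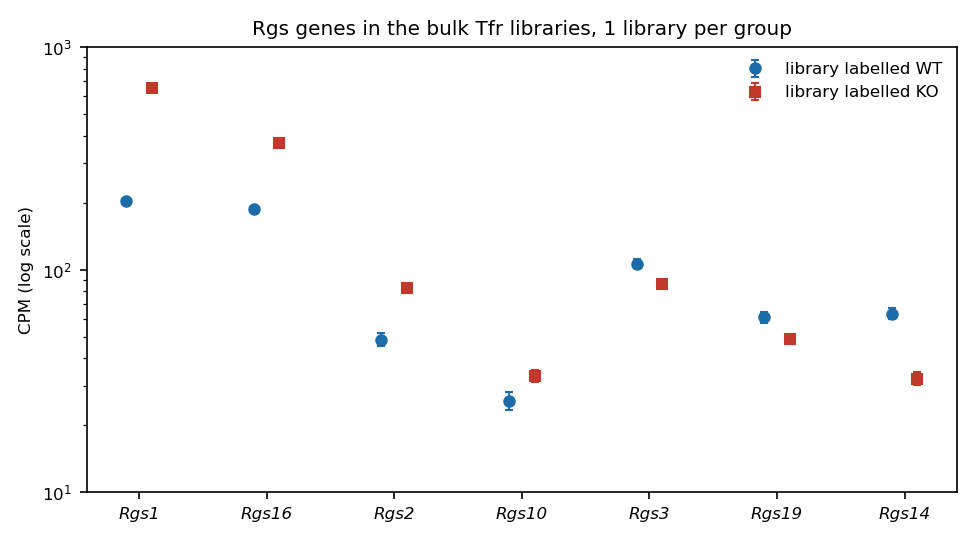
CPM of the 7 Rgs genes (vertical axis, log scale) in the bulk Tfr libraries labelled WT (blue circles) and KO (red squares), 1 library per group, with exact Poisson 95% intervals that are mostly smaller than the symbols. Rgs1 (656 against 203 CPM), Rgs16, Rgs2 and Rgs10 were higher in the library labelled KO, and Rgs3, Rgs19 and Rgs14 (32.4 against 63.5 CPM) were lower.

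Values of other genes moved beside these. For the counts below, 2.60% of 10194 genes were at least 2-fold higher and 9.12% lower in the library labelled KO. Of 9 measured Tfh markers, 5 were higher there, Sostdc1 itself among them, and 0 lower. The cytokine genes Il4 and Il21 were 28-fold (19.5 to 41.7) and 20.2-fold (16 to 25.8) higher. All 10 Tfh markers summed to 1381 CPM in the KO-labelled and 1237 CPM in the WT-labelled library. Of 14 markers of stimulation, 4 were higher and 1 lower, and their sum was 7378 CPM in the KO-labelled and 5901 CPM in the WT-labelled library. Il2 was 10.7-fold (8.55 to 13.6), Ccl3 4.13-fold (3.79 to 4.51) and Ccl4 3.8-fold (3.46 to 4.18) higher. Of 18 immediate early genes 1 was higher and 4 lower, and their sum was 4946 and 6674 CPM, a gap made mostly by Junb at 56.3 and 1380.04 CPM. Nr4a1 was at 1045 and 2299 CPM, the reverse of the Rgs16 order, whereas Rgs16 and Nr4a1 were high together among single cells. Ccr7 was at 125 and 133 CPM and Foxp3 at 1164 and 1471 CPM. A list of 10 NK and CD8 T cell markers summed to 112 and 35.8 CPM with 2 of 4 measured genes at least 2-fold higher (Klrk1 and Nkg7) in the library labelled KO, with 0 genes of the list at 0 counts in either library. The 10 myeloid markers summed to 441 and 594 CPM, set by Ccr2 at 338 and 513 CPM, while 2 of 5 measured genes were higher (Lyz2 2.94-fold (2.47 to 3.52) and Xcr1 2.2-fold (1.82 to 2.67)) and 0 lower. The 12 B cell markers summed to 740 and 1366 CPM, set by Ighm at 473 and 1091 CPM, while 2 of 6 measured genes were higher (H2-Aa 5.5-fold (4.24 to 7.24) and H2-Eb1 2.25-fold (1.86 to 2.74)) and 1 lower. The part of all these lists in the Rgs values was not tested. In the pathway lists, 3 of 19 chemoattractant receptors were at least 2-fold higher and 2 lower, with Cxcr6 3.14-fold (3.01 to 3.28) and Ccr4 2.64-fold (2.54 to 2.74) higher and S1pr4 5.3-fold (4.83 to 5.82) lower in the library labelled KO. Of 9 alpha subunits 2 were lower, Gnas by 6.79-fold (5.95 to 7.77) and Gna15 by 2.7-fold (2.4 to 3.05), where Gnas overlaps its antisense gene Gnasas1 and strand was not stated. Of 22 effectors 5 were lower, led by Arhgef1, a guanine nucleotide exchange factor gene, at 3.51-fold (3.41 to 3.61), and 0 were higher.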

How the data were processed

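The bulk table held whole-number counts and CPM (counts per 1000000 counts) per gene for each Tfr library, as the authors deposited them, beside fold change ratios, log2 values and p-values from the authors' own comparison, which were not used as results. The single-cell matrix held UMI counts, made by the authors with Cell Ranger 3.1.0 per the file headers, while the submitters' processing notes list Cell Ranger 2.1.0 and Seurat 2. The same notes list TopHat, Cufflinks, Bowtie2, MACS2, bedtools and HOMER, with no role, and more than 1 genome build. CPM recomputed from the counts differed from the deposited CPM by at most 0.0326%. In the table, the column of the library labelled WT carries a number that its title lacks, and 0 columns of samples were left without a sample.

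Cells with at least 500 genes and under 10% mitochondrial UMIs were kept (13190 of 15002 barcodes, of which 0 occurred more than once). The doublet caller of scanpy marked 0 cells and so did not work. The 10% of cells with the highest scores (1319) and 159 further cells in which B cell and T cell genes each reached 3 UMIs were left out instead. T cells had at least 1 UMI of Cd3d, Cd3e, Cd3g or Cd4, and each gate asked for at least 1 UMI of its marker. Of the gated T cells, 97 also met the myeloid gate of at least 3 UMIs. UMIs were summed per gate and scaled to CPM. CPM intervals are exact Poisson, ratio intervals exact conditional binomial, and limits for a count of 0 use 3 counts, which is 0.108 CPM in the KO-labelled and 0.166 CPM in the WT-labelled bulk library, all at 95% and for counting error only. A gene passed the size rule at 2-fold or more on the log2(CPM + 1) scale, among genes at 5 CPM (bulk) or 20 CPM (single cells) in either group. With 1 library per group no p-value was computed. The scripts were tested on simulated data.

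All 7 members are named. Of each pathway list the text names from the 3 genes with the largest log2 ratios, and of likeness from the first 5 genes, with some items not reported here. The members and the gene lists were chosen with earlier results of these data known. Splits by Sostdc1, Foxp3 with Cxcr5 and Pdcd1, Mki67, Gzmb, Klrg1, Ccl5, myeloid UMIs and mitochondrial share were chosen after seeing the data. So were the alternatives with Cd3-based T cells, without haemoglobin-rich cells and under 20000 UMIs. The other 8 samples were not analysed here. Software was Python 3.11.15 with numpy 2.4.6, scipy 1.17.1, pandas 2.3.3, scanpy 1.11.5 and matplotlib 3.10.9, and R 4.3.3 with edgeR 4.0.16 for TMM scaling.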

Additional observations from a re-analysis of the deposited data

How the results depend on the processing

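No paired analysis was possible because each group used here has 1 library, and for the same reason no library could be left out. Over 12 alternatives for cells, gates, filters and scale, Rgs16 stayed past 2-fold in stimulated against resting cells (log2 2.69 to 4.22) and in Tfh against resting cells (2.81 to 4.15), as did Rgs10 in Tfh against resting (1.35 to 1.62) and Tfh against stimulated cells (1.15 to 1.42) and Rgs1 in Treg against resting cells (1.29 to 2.18). Of the counts of members past 2-fold, 131 values under alternatives were kept within 1.5 times and 23 moved, and 0 called values changed direction. The kept values include counts of 0 that stayed at 0. Such were the counts of members lower in stimulated, Tfh and Treg cells against resting cells. Some alternatives left the cells or the values of a comparison unchanged, so a kept result is not always a separate check. In bulk, TMM scaling gave 2 higher members in place of 1. In stimulated against resting cells the count higher went from 2 to 1, without Rgs2, with 2 UMIs asked of each marker, with overlapping gates, with Cd3-based T cells under 2 myeloid UMIs and with the mean over cells. In Tfh against resting cells it went from 2 to 1 at under 5% mitochondrial UMIs, where Rgs16 missed the 20 CPM minimum, and in Treg against resting cells from 1 to 2 with no minimum. In Tfr against Treg cells it went from 0 to 1 (Rgs16) with 2 UMIs of each marker, without Mki67 or Top2a cells, with the mean over cells and in thinned cells, and the count lower from 1 to 0 with 2 UMIs of each marker. In Tfr against Tfh cells the count higher went from 0 to 1 (Rgs2) at under 5% mitochondrial UMIs, with 2 UMIs of each marker and without Mki67 or Top2a cells, and the count lower from 1 to 0 at under 5% mitochondrial UMIs, without doublet removal, without Mki67 or Top2a cells, with the mean over cells and in thinned cells. In Tfh against stimulated cells the count higher went from 1 to 2 with 2 UMIs of each marker, and the count lower from 1 to 0 there and with Cd3-based T cells. The cause was not tested. The Tfr and stimulated gates hold 84 and 136 cells.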

Other observations

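In the single-cell library, family members outside the 7 were rare in T cells, while Rgs9 and Rgs12 were measured in the bulk Tfr libraries. Among the other Rgs genes, those with at least 20 CPM in any single-cell gate were Rgs13, a germinal centre B cell gene, at 35.1 CPM in B marker cells, and Rgs18, known from platelets and myeloid cells, at 46.0 CPM in myeloid marker cells. Rgs8 was at 5.15 CPM (3.64 to 7.07) in Tfh cells and 0.893 CPM (0.0226 to 4.98) in Tfr cells, and was chosen once its level was known. The Tfr value came from 1 UMI, and the intervals overlapped.

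In the assays of Tfr cells, the bulk libraries held 11.1 (labelled KO) and 7.22 (labelled WT) Rgs16 counts per Rgs10 count, and the single-cell Tfr gate held 38.6 Rgs10 UMIs per Rgs16 UMI. The assays differ in sort and chemistry, so these values are set side by side without a comparison.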
